A study of Mus musculus with 12 samples.

Results

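Gata6+Itga6+ cells are the basal cells of mouse back-skin epidermis in which a Gata6 reporter was active. They were taken as the samples labelled double positive for Tomato (the Gata6 reporter) and ITGA6, which gave 3 of the 12 samples. The other 9 samples were 3 each of CD34+Itga6+ cells without the reporter (CD34+ cells below), of the remaining Itga6+ cells with neither CD34 nor the reporter, and of Gata6+Itga6- cells, which carried the reporter but not the integrin. All 12 came from female Gata6-mtomato reporter mice on a C57BL6/CBA background whose hair follicles were at rest (telogen). No treatment was given in the labels, the mice were described as matched for age without stating it, and the controls carried the same reporter allele, since every population was sorted from reporter mice. Each population was defined by flow cytometry alone, and the labels call the 3 samples of a population biological replicates without saying whether animals were pooled.

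Gata6 is a zinc-finger transcription factor of the GATA family, and in mouse skin it marks cells of the junctional zone and sebaceous duct, the stretch of upper hair follicle that joins follicle, gland and surface epidermis. Integrin alpha 6, paired with integrin beta 4, anchors basal keratinocytes to the basement membrane through hemidesmosomes, and it is lost as cells move upward and differentiate. CD34 marks stem cells of the bulge, lower in the follicle. The comparison therefore asks which transcripts belong to Gata6+ cells while they are still basal: more abundant than in either basal population without Gata6, and also more abundant than in Gata6+ cells that have left the basement membrane.

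Levels are given on a log2 scale, as log2 of the deposited array intensity plus 1, with the median over a gene's probe sets taken as its level. Differences are between population means on this scale, and a fold is that difference turned back to a ratio. As the level of silent genes served 2.46, under which 95% of 1144 genes for smell and pheromone receptors lay. Where the lower mean lay under it the fold was taken against it and is written as at least. Of 17853 genes, 9108 had a mean above that level in 1 population or more. Because sorted cells were measured in bulk, fewer cells with a transcript and less of it per cell cannot be told apart.

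The sort genes followed the gates, which checks the labels and is not a finding. Gata6 read 4.79, 4.21 and 4.18 in the 3 Gata6+Itga6+ samples, above all CD34+ and remaining Itga6+ samples (2.38 to 3.17) and below all Gata6+Itga6- samples (5.80 to 5.89). Cd34 read 1.55 to 1.94 in Gata6+Itga6+ samples, under the level of silent genes, against 7.92 to 7.98 in CD34+ samples. Itga6 read 7.14 to 7.41 in Gata6+Itga6+ samples and 5.76 to 6.36 in Gata6+Itga6- samples. It read 7.33 to 8.17 in remaining Itga6+ and 6.37 to 7.16 in CD34+ samples, the lowest of which was level with the highest Gata6+Itga6- sample. The transcript thus stayed well above the level of silent genes in cells sorted as lacking the integrin. The basal keratins Krt5 and Krt14 stood at 9.17 ± 0.066 and 9.30 ± 0.11 (SD, n = 3) in Gata6+Itga6+ cells. Markers of the upper follicle were high in these cells. Plet1 read 8.26, 7.95 and 8.18, and Krt79, a keratin of the junctional zone and sebaceous duct, read 8.19, 7.85 and 7.68.

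Markers of other cell types were near the level of silent genes in the Gata6+Itga6+ samples. The T cell genes Cd3e and Cd3g, the melanocyte genes Dct, Pmel and Tyrp1, the endothelial genes Pecam1 and Cdh5, the fibroblast genes Col3a1 and Dcn and the Langerhans cell gene Cd207 had means of 1.55 to 2.15 there. The 16 dermal fibroblast genes summed to an intensity of 50.6 to 51.0 per sample, against 439 to 520 in CD34+ samples, and the 17 Langerhans cell and macrophage genes to 73.0 to 121, against 57.8 to 81.2 in the other basal samples and 169 to 184 in Gata6+Itga6- samples. The Gata6+Itga6+ arrays were also among the brighter ones: their upper quartile of intensity was 15.7 to 16.6, with 12.1 to 17.6 on the other 9. The part of brightness in the results below was not tested beyond the quantile normalization given with them.

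Few genes set the Gata6+Itga6+ cells apart from every other population, and all of these were higher. With limma, 16 of 17853 genes (0.0896%) were called higher against each of the 3 other populations at an adjusted p under 0.05, and in each of the 16 all 3 samples lay above the other 9. No gene (0.0%) was called lower against each. At an unadjusted p under 0.05 in each comparison the counts were 182 higher and 13 lower. By the same rule 298 genes were highest and 95 lowest in CD34+ cells, 33 and 50 in the remaining Itga6+ cells, and 172 and 105 in Gata6+Itga6- cells. Without any test, all 3 Gata6+Itga6+ samples lay above the other 9 in 204 genes (1.14%) and below them in 64 (0.358%). The 3 comparisons share the Gata6+Itga6+ arrays, so the calls are not independent of each other.

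**Figure D1:**
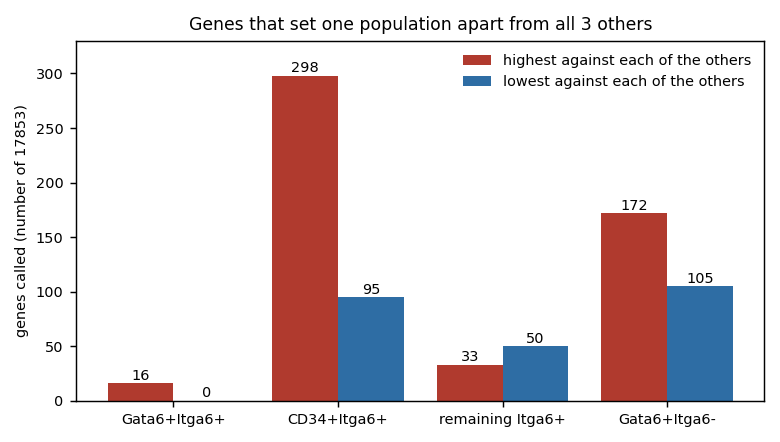
Number of genes, of 17853, called highest (red bars) or lowest (blue bars) in each population against each of the 3 others with limma at an adjusted p under 0.05. Gata6+Itga6+ cells have the fewest of both, 16 and 0, and CD34+ cells the most highest genes, 298.

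Against the mean of the other 3 population means, 174 genes were called higher (0.975%) and 58 lower (0.325%), so 75% of the called genes were higher. After quantile normalization, which removes the difference in brightness, the split was 143 and 84 (63.0% higher) and the number highest against each population stayed at 16, with 13 genes in common; 1 gene was then lowest. Most of the 174 did not stand above every population. They were called higher against all 3 in 16 genes, against 2 in 110 and against 1 in 47, and 121 had their highest mean in Gata6+Itga6+ cells. Of the 58 lower genes, 47 were lower than in CD34+ cells, 11 than in Gata6+Itga6- cells and 4 than in the remaining Itga6+ cells, and Gata6+Itga6+ cells held the lowest mean in 18. Among the 9108 genes above the level of silent genes, Gata6+Itga6+ cells held the highest of the 4 means in 33.3%, and the lowest in 9.96%; after quantile normalization they were highest in 17.7% and lowest in 19.4%. Across these genes, which are not independent replicates, Gata6+Itga6+ samples correlated with each other at 0.902 to 0.927, with remaining Itga6+ samples at 0.832 to 0.896, with Gata6+Itga6- samples at 0.815 to 0.863 and with CD34+ samples at 0.765 to 0.808. Leaving out single samples moved the number called, to 122, 139 and 97 without Gata6+Itga6+ replicate 1, 2 or 3 and to 368 without remaining Itga6+ replicate 3.

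Among the 16 genes, the enzymes were led by Aldh3a1, an aldehyde dehydrogenase that oxidises aldehydes from lipid peroxidation. It read 7.22, 7.39 and 7.61 in Gata6+Itga6+ samples, against 4.62 to 5.36 in CD34+, 4.69 to 5.55 in remaining Itga6+ and 3.97 to 5.19 in Gata6+Itga6- samples. No other sample came within a log2 unit of the lowest of the 3. It was 5.24-fold higher than in CD34+, 5.21-fold higher than in remaining Itga6+ and 7.49-fold higher than in Gata6+Itga6- cells (SE of each log2 difference 0.33; the largest limma adjusted p was 0.00577). All 11 of its probe sets had their highest mean in Gata6+Itga6+ cells. It was called against all 3 populations whichever single sample was left out, and it was the 1 gene called against each of them when every pair of populations was fitted on its own (adjusted p = 0.0234).

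Pgm5, which codes for aciculin, a phosphoglucomutase relative found at adhesion plaques and without known enzyme activity, was at the level of silent genes outside this population. It read 3.32, 4.11 and 3.63 in Gata6+Itga6+ samples and 1.46 to 2.20 in the other 9. Its fold was at least 2.34 against each population (largest limma adjusted p = 0.00152), 14 of its 15 probe sets had their highest mean in Gata6+Itga6+ cells, and its call held in all 12 fits that left out 1 sample. Serpina3g, a serine protease inhibitor known from activated lymphocytes and macrophages, read 5.74, 5.59 and 5.96. It varied elsewhere, from 2.44 to 4.50 in CD34+ and from 2.68 to 3.83 in Gata6+Itga6- samples, and stayed at 2.05 to 2.43 in remaining Itga6+ samples. It was 4.97-fold higher than in CD34+, at least 9.87-fold higher than in remaining Itga6+ and 6.37-fold higher than in Gata6+Itga6- cells (SE 0.46; largest limma adjusted p = 0.0160). Mouse Serpina3 genes are a cluster of close copies, and whether its 5 probe sets read only Serpina3g was not tested. The aldo-keto reductase Akr1c19 met the rule at levels under that of silent genes in all 4 populations (1.71 to 2.25 in Gata6+Itga6+ and 1.22 to 1.48 in the other samples), so no fold is given for it.

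Secreted signals made up a second set. Sostdc1, a secreted antagonist of BMP and Wnt signalling, read 6.31, 6.14 and 7.06 in Gata6+Itga6+ samples and 3.66 to 4.92 in the other 9. It was 3.47-fold, 4.76-fold and 4.17-fold higher than in CD34+, remaining Itga6+ and Gata6+Itga6- cells (SE 0.35; largest limma adjusted p = 0.0146), with 4 of 5 probe sets highest there. Tgfb2, a ligand of the TGF-beta receptors, read 3.66, 2.97 and 3.86, and at most 2.44 in every other sample. Its fold was at least 2.05 (largest limma adjusted p = 0.0281). Of the other ligands, Tgfb1 had a mean of 2.61 and Tgfb3 of 2.56 in Gata6+Itga6+ cells, and neither was called in any comparison. Il7, a cytokine that keeps lymphocytes alive, read 3.29, 2.88 and 2.62, against 1.43 to 2.15 elsewhere (at least 1.39-fold; largest limma adjusted p = 0.0201), and all 11 of its probe sets were highest there. Its receptor chain Il7r was under the level of silent genes in every population. Kazald1, a secreted protein with an insulin-like growth factor binding domain, read 3.95, 3.51 and 4.03, against 1.66 to 2.75 in the other samples, and was at least 2.58-fold higher (largest limma adjusted p = 0.0199). Tgfb1, Tgfb3 and Il7r were chosen after their values were seen.

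Both receptors among the 16 couple to G proteins. P2ry1, a receptor for ADP, read 4.39, 5.07 and 4.94 in Gata6+Itga6+ samples. It read 3.61 to 4.04 in CD34+, 3.68 to 3.72 in remaining Itga6+ and 2.72 to 3.12 in Gata6+Itga6- samples, so that it was also present in the other basal cells. It was 1.90-fold, 2.14-fold and 3.75-fold higher in that order (SE 0.19; largest limma adjusted p = 0.0194). Only 2 of its 9 probe sets had their highest mean in Gata6+Itga6+ cells, and with the mean of probe sets in place of the median its largest adjusted p was 0.9996. Avpr1a, a vasopressin receptor, read 2.67, 3.15 and 2.63, against 1.53 to 2.04 in the other 9 samples, and was at least 1.28-fold higher (largest limma adjusted p = 0.00756). Of its 4 probe sets, 2 were highest in Gata6+Itga6+ cells, and its call held whichever sample was left out. Tmem252, a membrane protein of little known function, read 2.28, 2.81 and 3.30 against 1.39 to 1.79, with 3 of 7 probe sets highest.

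Genes of cell division formed the remaining set. Top2a, the topoisomerase that untangles chromosomes before they separate, read 4.97, 5.23 and 5.34 in Gata6+Itga6+ samples. Remaining Itga6+ samples followed at 3.03, 3.97 and 4.36, and CD34+ (1.54 to 1.80) and Gata6+Itga6- (2.33 to 2.45) samples lay under the level of silent genes. It was 2.63-fold higher than in remaining Itga6+ cells (limma adjusted p = 0.0372) and at least 6.58-fold higher than in the other populations, with 36 of 37 probe sets highest in Gata6+Itga6+ cells. The kinase Ttk, which acts at the spindle checkpoint, read 3.47, 3.05 and 3.08 against 1.89 to 2.44 in remaining Itga6+ and 1.45 to 1.72 in the other samples. Ncaph, a condensin subunit, read 2.80, 2.56 and 2.96 against 1.68 to 2.09. Prr11, a proline-rich protein of dividing cells, and Usp1, a ubiquitin protease of DNA repair, had means of 2.77 and 2.72 in Gata6+Itga6+ cells and of 1.65 to 2.00 in the other populations. Many calls among the 16 were lost without single samples. Of the 12 fits that left out 1 sample, 1 kept Akr1c19, 2 each kept Top2a and Prr11, and 5 each kept Tgfb2 and Usp1. Il7 and Kazald1 were kept in 6, Serpina3g and P2ry1 in 7, and Ttk, Ncaph, Sostdc1 and Tmem252 in 9. With the mean of probe sets Akr1c19, P2ry1, Prr11 and Usp1 were not called against every population. After quantile normalization Top2a, Prr11 and P2ry1 were not (largest limma adjusted p = 0.0640, 0.0514 and 0.216).

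**Figure D2:**
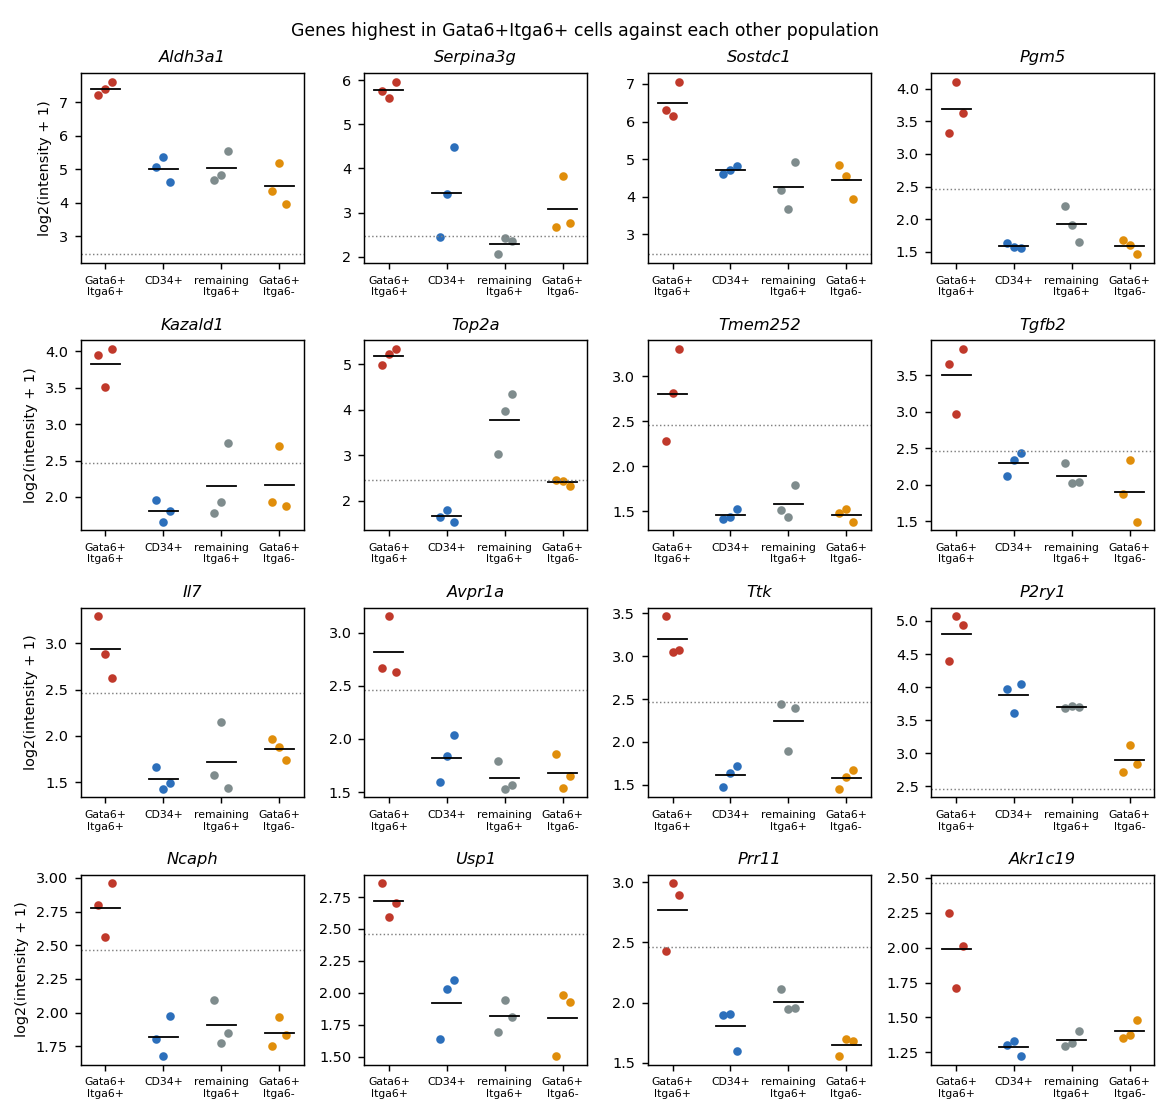
Log2(intensity + 1) of the 16 genes highest in Gata6+Itga6+ cells, 1 point per sample, 3 samples per population, with black lines at the means and a dotted line at 2.46, the level of silent genes; each panel has its own scale. In every panel the 3 Gata6+Itga6+ samples lie above the other 9, and in 11 panels all other population means lie under the dotted line.

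In 11 of the 16 genes all 3 other population means were under the level of silent genes. Over the 16, 162 of 194 probe sets (83.5%) had their highest mean in Gata6+Itga6+ cells, against 26.0% of all probe sets; the genes were chosen on these probe sets, so this only describes them. In 9 of the 16 every pairwise difference was at least 2-fold on the measured means. The set changed in size with single samples, from 6 genes without remaining Itga6+ replicate 2 and 8 without remaining Itga6+ replicate 1 or Gata6+Itga6+ replicate 3 to 25 without remaining Itga6+ replicate 3. It held 10 genes without CD34+ replicate 1 or 2, Gata6+Itga6+ replicate 1 or Gata6+Itga6- replicate 1. Aldh3a1, Avpr1a and Pgm5 were in it each time. When the other 9 arrays were taken as 1 group, so that differences among the 3 populations counted as spread, 16 genes were called and 14 of them were among these 16; Top2a and P2ry1 were replaced by Eif4b and Aspm.

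Just outside the rule lay genes that passed in 2 comparisons and missed the third, chosen here after their values were seen. The translation factor Eif4b read 7.46, 7.28 and 7.02, above all other samples (5.55 to 6.50), with a limma adjusted p of 0.0510 against remaining Itga6+ cells. Aspm, Kif20b and Anln, genes of the mitotic spindle and of cytokinesis, missed against the same cells (0.0543, 0.0672 and 0.0711). Aspm lay under the level of silent genes in all 4 populations, with a mean of 2.28 here. Kif20b was barely above that level here (2.49) and under it elsewhere. The transcription factor Irx4 missed against CD34+ cells (0.0664), and the exchange factor Rasgrf1 and the acyl-CoA synthetase Acsbg1 against Gata6+Itga6- cells (0.0605 and 0.0662). On the lower side the nearest was Hoxd10, a homeobox gene of posterior body position, at 2.10, 2.10 and 1.75 against 2.34 to 3.00 in the other 9 samples. It was called lower than in remaining Itga6+ and Gata6+Itga6- cells (limma adjusted p = 0.0298 and 0.0282) but not than in CD34+ cells (0.133). Its means of 1.98 here and 2.45 in CD34+ cells lay under the level of silent genes. Where called, it was thus at least 1.25-fold and at least 1.19-fold lower.

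To show what lies upstream of these genes, the 250 bases before each annotated start were searched for GATA letters, namely AGATAA or AGATAG, or else TGATAA or TGATAG, on either strand. RefSeq promoters of assembly GRCm38.p6 were at hand for 12 of the 16 genes, 13 promoters in all; the arrays were annotated on mm9, so these coordinates serve the promoters alone. Of the 13, 3 held the letters (23.1%), against 21.96% of 17777 promoters of genes on the array, so the share was that of promoters in general. The 3 are printed 5′ to 3′ on the gene's strand, with the matches in capitals, some of them on the opposite strand. They lie at chr11:99024190-99024439 (minus strand) for Top2a, chr19:24861843-24862092 (minus) for Pgm5 and chr13:4233490-4233739 (plus) for Akr1c19.
Top2a: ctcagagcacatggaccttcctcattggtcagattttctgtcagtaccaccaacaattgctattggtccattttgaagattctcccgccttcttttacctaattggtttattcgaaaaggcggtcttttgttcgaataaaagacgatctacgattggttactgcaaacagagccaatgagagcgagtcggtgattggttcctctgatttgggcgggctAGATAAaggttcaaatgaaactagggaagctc
Pgm5: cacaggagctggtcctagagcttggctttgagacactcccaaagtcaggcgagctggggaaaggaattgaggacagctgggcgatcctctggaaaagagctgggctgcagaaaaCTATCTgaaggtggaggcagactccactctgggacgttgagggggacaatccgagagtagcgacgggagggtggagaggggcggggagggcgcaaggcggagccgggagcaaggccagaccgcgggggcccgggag
Akr1c19: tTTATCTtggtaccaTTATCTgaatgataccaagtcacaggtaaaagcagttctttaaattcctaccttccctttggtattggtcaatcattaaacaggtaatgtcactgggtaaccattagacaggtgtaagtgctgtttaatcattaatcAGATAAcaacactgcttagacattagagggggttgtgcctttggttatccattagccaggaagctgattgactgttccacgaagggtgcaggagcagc

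The match in Top2a began 32 bases before the start, that in Pgm5 136 bases, and those in Akr1c19 249, 235 and 98 bases. The AP-1 letters TGACTCA and its reverse TGAGTCA were in none of the 13, against 3.96% of all promoters, and the TEAD letters GGAATG on either strand in 1, a promoter of Kazald1, against 11.4%. A match is letters in a window and not a bound site, and no match says nothing of the factor.

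Some genes of cell division rose in Gata6+Itga6+ cells against the mean of the other populations, mainly through the CD34+ and Gata6+Itga6- cells. Of 27 measured cell cycle genes, 10 were called higher against the mean of the others and the remaining 17 did not pass; the median difference was 0.65, against 0.02 over all 17853 genes, of which 0.975% were called higher. The called genes were Top2a, Mki67, Mcm3, Mcm6, Cenpf, Nusap1, Cdk1, Aurkb, Tpx2 and Bub1b. Mki67, the antigen of cycling cells, read 4.27, 5.15 and 5.04, against 1.77 to 2.06 in CD34+ and 2.00 to 2.18 in Gata6+Itga6- samples. Mcm6, a subunit of the replicative helicase, read 5.01, 4.97 and 5.39, against 3.03 to 3.48 and 2.10 to 2.78. Cdk1, the kinase that drives mitosis, read 2.94, 2.94 and 3.93, against 1.60 to 1.80 and 1.54 to 1.90. In all 3 genes the Gata6+Itga6+ samples lay above every sample of these populations.

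The remaining Itga6+ cells were the exception. Mki67 read 3.28, 3.52 and 4.47 there, Mcm6 4.40, 4.88 and 5.23, and Cdk1 2.06, 2.87 and 2.62. For Mki67 and Mcm6 these ranges overlapped those of the Gata6+Itga6+ samples. Of the 27 genes, 13 were called higher than in CD34+ cells (2.4% of all genes called higher), 12 higher than in Gata6+Itga6- cells (2.01%), and 1, Top2a, higher than in remaining Itga6+ cells (1.07%), with median differences of 0.83, 0.89 and 0.26. Against remaining Itga6+ cells 4 were called without remaining Itga6+ replicate 3, and 0 or 1 in the other fits that left out 1 sample. After quantile normalization 0 were called against them, so the call of Top2a was lost there. Gata6+Itga6+ cells held the highest mean in 22 of the 27, against 4868 of all 17853 genes. Over all genes above the level of silent genes the share was 33.3%, and 17.7% after quantile normalization. Only 14 of the 27 were above that level in some population, so the ranks of the rest compare values near background. The cyclin Ccna2 had a mean of 2.66 with Gata6 and of 2.77 in remaining Itga6+ cells. The cyclin Ccnd2, on the list of interfollicular basal genes, was likewise at 8.39 and 8.22 in these populations, and lower in CD34+ (7.09) and Gata6+Itga6- cells (6.28). The count against the mean was 5, 4 and 6 of 27 without Gata6+Itga6+ replicate 2, Gata6+Itga6+ replicate 3 or Gata6+Itga6- replicate 3, and 17 with the mean of probe sets. With the other 9 arrays as 1 group in limma 0 were called, although 21 had an unadjusted p under 0.05.

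**Figure D3:**
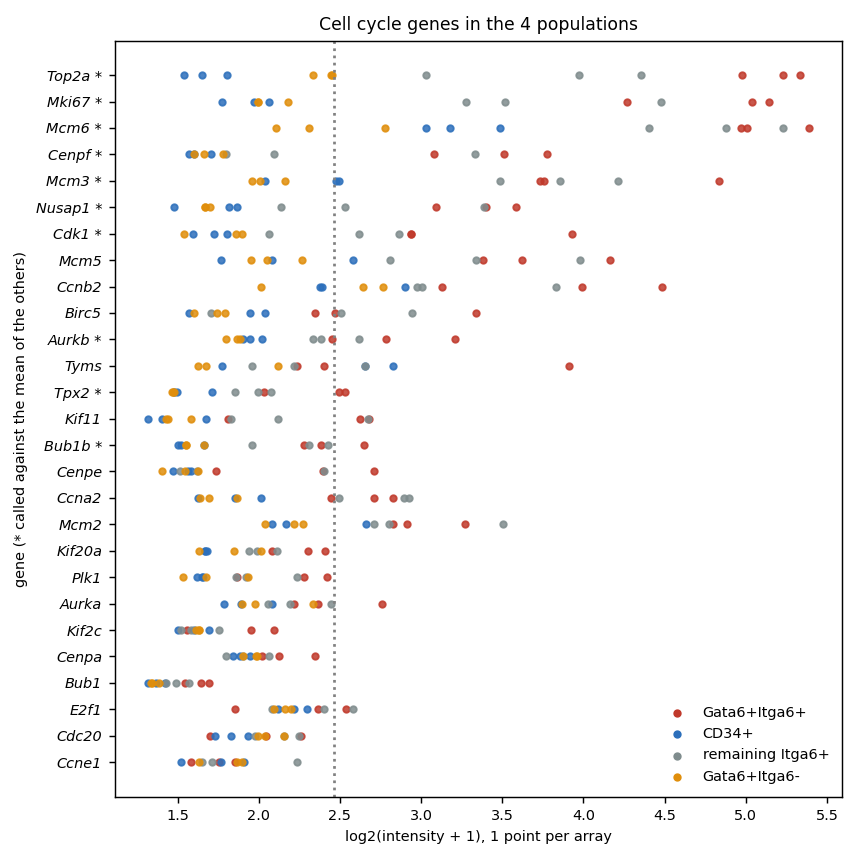
Log2(intensity + 1) of the 27 measured cell cycle genes, 1 point per sample, with colours for the 4 populations and a dotted line at 2.46; genes are ordered by their difference from the mean of the other populations and an asterisk marks the 10 called. In the 10 called genes CD34+ and Gata6+Itga6- samples lie to the left of the Gata6+Itga6+ samples, at 1.77 to 2.18 for Mki67. Remaining Itga6+ samples reach 4.47 for Mki67, inside the Gata6+Itga6+ range of 4.27 to 5.15. In some genes not called, such as Cdc20 and Tyms, the populations overlap.

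Genes called higher than in other basal cells differed in where they stood against Gata6+ cells without the integrin. Against CD34+ cells 429 genes were higher and 390 lower (2.4% and 2.18%), against remaining Itga6+ cells 191 and 51 (1.07% and 0.286%), and against Gata6+Itga6- cells 359 and 208 (2.01% and 1.17%). In 86 genes the level exceeded that of both basal populations. Of these, 16 were also higher than in Gata6+Itga6- cells, 46 were not called against them, and 24 were lower than in them. This split describes calls that share the Gata6+Itga6+ arrays, and the 46 are not shown to be equal in both Gata6+ populations.

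The 24 include upper follicle and differentiation genes. Defb6, an antimicrobial beta-defensin, read 8.49, 7.58 and 7.81 in Gata6+Itga6+ samples, 1.72 to 2.65 in both other basal populations, and 9.25, 9.57 and 9.50 in Gata6+Itga6- samples. It was at least 45.2-fold higher than in each basal population and 2.79-fold lower than in Gata6+Itga6- cells (limma adjusted p = 0.0151). Krt79 was 38.7-fold and 27.6-fold higher than in CD34+ and remaining Itga6+ cells, and 3.06-fold lower than in Gata6+Itga6- cells (0.00347). The deacetylase Aadac and the cysteine protease inhibitor Cst6 were at least 23.97-fold and at least 26.5-fold higher than in either basal population, and 1.92-fold and 3.72-fold lower than in Gata6+Itga6- cells. Each of these 4 genes thus stood between basal cells without Gata6 and suprabasal cells with it.

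Differentiation genes among the 24 also stood between these levels. Dsc1, a desmosomal cadherin of upper layers, read 6.09, 5.81 and 5.23, against 1.53 to 2.70 in the other basal samples, and was 6.56-fold lower than in Gata6+Itga6- cells (limma adjusted p = 0.000357). Ivl, the cornified envelope protein involucrin, read 3.22, 2.83 and 2.38 against 5.27 to 5.94 (7.26-fold lower), and Sprr1a, another envelope precursor, 7.92, 7.08 and 6.44 against 9.75 to 9.82 (6.20-fold lower). In all 3 the Gata6+Itga6+ replicate 3 was the lowest of its group. Spink5, a protease inhibitor of the granular layer, and Crabp2, which binds retinoic acid, were 4.54-fold and 5.28-fold lower than in Gata6+Itga6- cells; Spink5, Crabp2, Ivl and Sprr1a were chosen after their values were seen. Of 37 spinous and granular genes, 13 were higher and 1 lower than in CD34+ cells (2.4% and 2.18% of all genes), 8 higher than in remaining Itga6+ cells (1.07%), and 1 higher and 16 lower than in Gata6+Itga6- cells (2.01% and 1.17%). The 1 higher than in Gata6+Itga6- cells was Krt1, an early suprabasal keratin, which read 7.69, 7.19 and 6.12 in Gata6+Itga6+ and 6.79 to 7.47 in remaining Itga6+ samples, against 2.75 to 3.30 in CD34+ and 4.67 to 4.90 in Gata6+Itga6- samples. Its partner Krt10 did not follow it: it was 6.03-fold higher than in CD34+ cells but stood at 9.50 in Gata6+ cells that kept the integrin and 9.61 in those without it.

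The 46 genes not called against Gata6+Itga6- cells included the follicle markers Lrig1, which restrains growth factor receptors, and Plet1. Lrig1 read 5.13, 5.54 and 6.03 in Gata6+Itga6+ and 5.06 to 5.43 in Gata6+Itga6- samples, against 2.79 to 4.09 in the other basal samples. The extracellular protein Abi3bp read 6.30, 6.67 and 6.91, against 6.86 to 6.93 and 2.50 to 3.16 in the same order. Both genes overlapped between the Gata6+ populations. The acyl-CoA synthetase Acsl4, which activates arachidonic acid, was 9.59-fold higher than in CD34+ and at least 10.4-fold higher than in remaining Itga6+ cells, and differed from Gata6+Itga6- cells by 0.21 (SE 0.28). Egr2, a zinc-finger transcription factor, was 19.2-fold and 6.67-fold higher than in CD34+ and remaining Itga6+ cells, and Aldh1a1, which makes retinoic acid, at least 2.78-fold higher than in either. Of 17 measured upper follicle genes, 11 were higher than in CD34+ cells (2.4% of all genes) and 12 than in remaining Itga6+ cells (1.07%). Against Gata6+Itga6- cells 2 were higher and 10 lower (2.01% and 1.17%). The 11, the 12 and the 10 each count Gata6, on whose reporter the cells were sorted. The medians of the 17 genes were 2.06, 1.94 and -1.40, against 0.02, 0.04 and 0.03 over all genes. The upper follicle stem cell marker Lgr6, chosen after its values were seen, went the other way: it was not called against either basal population and was at least 3.07-fold higher than in Gata6+Itga6- cells.

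**Figure D4:**
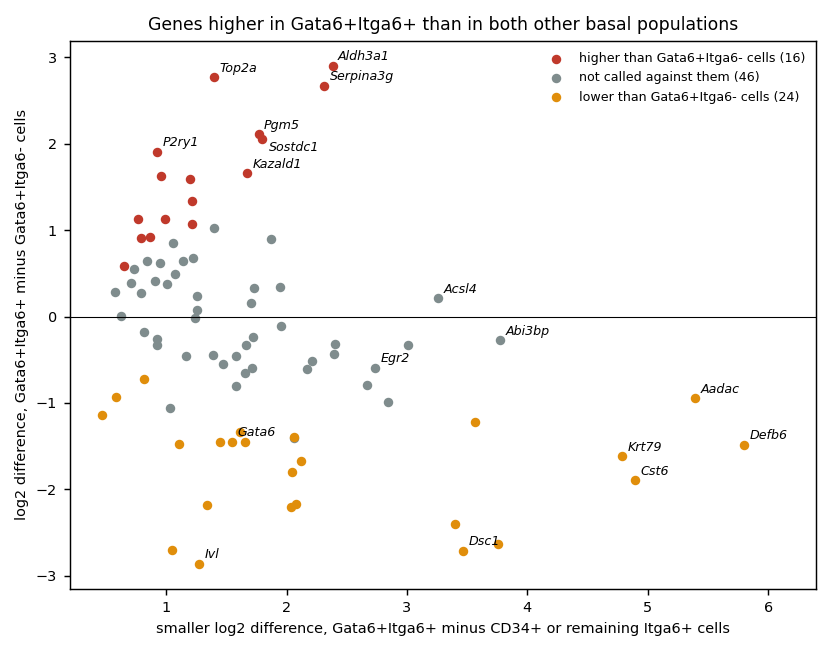
The 86 genes called higher against each of the other basal populations: the smaller of those log2 differences (horizontal) against the log2 difference from Gata6+Itga6- cells (vertical). Red points are the 16 genes also higher than in Gata6+Itga6- cells, grey the 46 not called against them and orange the 24 lower; the 4 genes farthest to the right, with Defb6 at 5.80, are all lower than in Gata6+Itga6- cells.

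Several genes of attachment to the basement membrane exceeded their level in Gata6+ cells without the integrin. Of 20 interfollicular basal genes, 13 exceeded their Gata6+Itga6- level (2.01% of all genes called higher) and 2, Sostdc1 and Avpr1a, were higher than in each population. Krt5 was 5.63-fold, Itgb4 3.44-fold and the hemidesmosome collagen Col17a1 3.70-fold higher than in Gata6+Itga6- cells, and none of these 3 was called against CD34+ or remaining Itga6+ cells. Of 23 hemidesmosome and basement membrane genes, 8 were higher than in Gata6+Itga6- cells (2.01% of all genes). The 8 include the sort gene Itga6, on which these populations were gated. None of the 23 was higher than in the other basal populations. Lower than in CD34+ cells were 3 (2.18% of all genes), the anchoring fibril collagen Col7a1, the matrix protein Npnt and Itga2, and Itga2 was also lower than in remaining Itga6+ cells (0.286%). The laminin chain Lama3 read 4.07, 4.09 and 3.94, beside 3.60 to 4.27 in the other basal samples and 2.59 to 2.70 in Gata6+Itga6- samples. The laminin chain Lamb3 was at least 4.95-fold higher than in Gata6+Itga6- cells. Itga2 is a collagen-binding integrin: at 2.39, 2.62 and 3.00 it lay between the other basal samples (3.91 to 5.17) and Gata6+Itga6- samples (1.56 to 1.59), 4.47-fold lower than in CD34+ and 2.74-fold lower than in remaining Itga6+ cells. Col17a1, Itgb4, Col7a1 and Npnt were chosen after their values were seen.

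Itga2 was 1 of 8 genes lower than in both basal populations. Of these, Itga2, the carbonyl reductase Cbr2, the matricellular protein Ccn1 and the taurine transporter Slc6a6 were higher than in Gata6+Itga6- cells, and Sparc, Igfbp3, Bcar1 and Prss23 were not called against them. Slc6a6 read 4.36, 5.64 and 5.25 in Gata6+Itga6+ samples, between 6.78 to 8.96 in the other basal samples and 1.84 to 2.80 in Gata6+Itga6- samples. Igfbp3, which binds insulin-like growth factors, read 3.36, 3.70 and 2.47, against 4.86 to 6.16 and 1.99 to 2.56. Apart from Itga2 and Sparc these genes were chosen after their values were seen.

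Bulge genes were among those lower than in CD34+ cells. Of 24 measured, 6 were lower against the mean of the others (0.325% of all genes). Lower than in CD34+ cells were 15 (2.18% of all genes called lower). Both counts include the sort gene Cd34. Called higher were 3 than in remaining Itga6+ cells (1.07%) and 2, Postn and Ccn2, than in Gata6+Itga6- cells (2.01%). Postn was chosen after its values were seen. The keratin Krt15 was not called in any comparison. Its means were 9.87 here, 9.94 in CD34+, 9.78 in remaining Itga6+ and 9.63 in Gata6+Itga6- cells. Another keratin, Krt24, read 8.48 to 8.93 in CD34+ samples and 1.61 to 2.55 in Gata6+Itga6+ samples, and the Wnt antagonist Sfrp1 8.61 to 8.80 and 2.57 to 3.85. Krt24 was at least 76.9-fold and Sfrp1 38.8-fold lower than in CD34+ cells, and neither was called against the other populations. The same held for Il31ra, Angptl7, Pcolce2, Col12a1 and S100a4, which were 15.1-fold to 62.4-fold lower than in CD34+ cells, counted as at least where they lay under 2.46 here. Sparc was the exception: at 1.97, 3.21 and 3.16 it was 57.3-fold lower than in CD34+ and 5.20-fold lower than in remaining Itga6+ cells, where it read 4.69 to 5.95. Sparc, Col6a1 and Col6a2 are also on the dermal fibroblast list, and that list summed to more in CD34+ samples than in any others, as given above. Of the 16 genes of that list, 4 were called lower than in CD34+ cells (2.18% of all genes): Sparc, Col6a1, Col6a2 and Col1a2. Among its other collagens and matrix genes, Col1a1 had a mean of 2.83 in CD34+ and 2.39 in Gata6+Itga6+ cells, without a call. Col3a1 and Dcn were under the level of silent genes in all 4 populations. The part of fibroblast RNA in these differences was not tested.

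Other genes were called higher than in the remaining Itga6+ and the Gata6+Itga6- cells but not than in CD34+ cells, which does not show them equal there. The calcium sensor Vsnl1 read 6.43, 7.02 and 7.12 in Gata6+Itga6+ and 5.50 to 6.04 in CD34+ samples, against 3.12 to 4.92 in remaining Itga6+ and 1.58 to 2.02 in Gata6+Itga6- samples. It was 6.56-fold and at least 21.0-fold higher than in those populations, and did not pass against CD34+ cells (2.04-fold; limma adjusted p = 0.231), although all 3 samples lay above the other 9. Adh7, an alcohol dehydrogenase that oxidises retinol, read 6.72, 7.61 and 7.02, beside 5.76 to 6.57 in CD34+ samples, which it also exceeded in every sample without a call, and was 3.39-fold and 16.5-fold higher than in remaining Itga6+ and Gata6+Itga6- cells. Follistatin (Fst), which binds activin, read 7.83, 7.62 and 7.49, within the CD34+ range of 7.59 to 7.95 but for the last, and was 13.2-fold and 2.22-fold higher than in the same populations. In all, 16 genes were called higher than in remaining Itga6+ and Gata6+Itga6- cells without a call against CD34+ cells. Ccn2, Grem1 and Fgfr1, chosen after their values were seen, were 3 of 9 genes called higher than in those populations and lower than in CD34+ cells: Ccn2 read 4.31, 4.97 and 5.09, against 7.08 to 7.38 in CD34+ samples and 2.77 to 3.50 in the others.

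In 90 genes Gata6+Itga6+ cells were called higher than CD34+ and Gata6+Itga6- cells without a call against remaining Itga6+ cells, Mki67, Mcm6 and Cdk1 among them. Others, chosen after their values were seen, were the transcription factors Gata3 and Klf5, the surface antigen Ly6a and the alarmin Il33. Gata3 read 7.39, 7.88 and 7.51, beside 7.76 to 8.48 in remaining Itga6+ samples, 5.72 to 6.70 in CD34+ and 5.54 to 6.09 in Gata6+Itga6- samples. Il33 read 4.41, 4.59 and 4.72, inside the wide range of 3.26 to 5.81 in remaining Itga6+ samples and above 1.65 to 2.24 in the rest. The chloride channel subunit Gabrp read 4.15, 4.75 and 3.30, below remaining Itga6+ samples (5.60 to 6.11) and above all others (1.46 to 2.15).

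In the pathway lists below, the counts against the mean are to be read beside the 0.975% of all genes called higher and 0.325% called lower, and those against CD34+ cells beside 2.4% and 2.18%. Of 37 BMP and TGF-beta genes, 2 were higher against the mean (Tgfb2 and Fst) and 1 lower (Ltbp2, a binding protein of the extracellular matrix). Against CD34+ cells 3 were higher and 9 lower, the BMP targets Id1, Id2 and Id3 and the BMP antagonists Nog and Grem1 among the lower. Of 28 interleukin-1 family and cytokine receptor genes, 7 were higher and 1 lower than in CD34+ cells, Il33 and the receptors Il1r1 and Il4ra among the higher. Against remaining Itga6+ cells 1 was higher, Il18r1, and 3 lower, Il1r2, Il20ra and Il12rb2 (1.07% and 0.286% of all genes). Against the mean 0 were higher and 1, Il31ra, was lower. Of 14 Hedgehog genes, 4 were lower than in CD34+ cells: the ligand Dhh, the transcription factors Gli1 and Gli2, and the co-receptor Boc. Of 26 NRF2 and xenobiotic response genes, 3 were higher against the mean, Aldh3a1, Aldh1a1 and the receptor Ahr, and the cytochrome P450 Cyp2b19 was lower, since it stood at 6.61 in Gata6+Itga6- and at 2.07 to 2.66 in the basal populations. Of 23 arachidonate and prostaglandin genes, Acsl4, the lipoxygenase Alox12e and the reductase Ptgr1 were higher against the mean. Alox12e was lower than in Gata6+Itga6- cells, at a mean of 6.22 against 7.44 (limma adjusted p = 0.0265). Ptgr1 also had its highest mean in Gata6+Itga6- cells (8.49, against 7.49 here), without a call. Of 19 retinoid genes, Adh7, Aldh1a1 and Crabp2 were higher and Crabp1 lower. Of 23 Notch genes, the ligands Dll1 and Jag2 were higher against the mean. Dll1 read 2.61 to 2.68 in Gata6+Itga6+ samples and 1.78 to 2.43 in the other 9. Jag2 had a mean of 3.92 and was called higher only than in Gata6+Itga6- cells (2.42), beside 3.85 in remaining Itga6+ and 3.48 in CD34+ cells. Its call against the mean was lost in 9 of the 12 fits that left out 1 sample. The ligand Jag1, chosen after its values were seen, was lower than in CD34+ cells. Of 21 genes of p53 targets and CDK inhibitors, 1 was higher, Cdkn1a, which halts the cell cycle. It read 7.26, 6.83 and 6.93, against 5.81 to 6.55 in remaining Itga6+, 2.41 to 2.71 in CD34+ and 7.78 to 8.11 in Gata6+Itga6- samples, with no overlap between Gata6+Itga6+ and any other samples. Of 23 tight junction and desmosome genes, Cldn8, Cgnl1 and Marveld2 were higher against the mean and Cldn4 lower. Cldn8 read 5.67, 5.84 and 6.52, and overlapped the Gata6+Itga6- samples, which reached 5.89. Marveld2 was lower than in Gata6+Itga6- cells, at 4.23 to 4.35 against 4.77 to 5.16. Cldn4 stood at 6.15 in Gata6+Itga6- cells and at 2.05 to 2.15 in the basal populations, under the level of silent genes. Against Gata6+Itga6- cells 1 of the 23 was higher and 5 lower (2.01% and 1.17% of all genes).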

How the data were processed

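The values deposited by the authors are array intensities per exon probe set of 12 Affymetrix mouse exon arrays, made with RMA in Affymetrix Power Tools on mm9, per the submitters' processing notes; versions are not given in the sources used here. Per the labels, sorted cells gave RNA over micro columns, which was amplified and hybridised as biotinylated cDNA. The intensity scale was taken as linear from the values; every fold rests on this. RMA sets background and scale across arrays, which reduces shifts shared by most genes.

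Of 235932 probe sets, 221205 with 1 gene symbol were used, and symbols were updated through RefSeq (GRCm38.p6). Levels are medians of log2(intensity + 1), giving 17853 genes, of which 8745 were under the level of silent genes in all populations. The added 1 makes folds of dim genes smaller. With limma 3.58.1 (R 4.3.3), the 12 arrays entered a single fit of 4 population means (prior degrees of freedom 2.12, residual 8), with Benjamini-Hochberg adjustment over all genes of a comparison and calls at an adjusted p under 0.05. A gene is highest or lowest when called in all 3 pairwise comparisons, so its largest adjusted p decides. The procedure was tested on simulated data. Permuting 3 against 3 samples exactly gives no p under 0.1, so limma was used alone. The number of arrays limits the precision.

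Samples were grouped by their labels. The members, the 34 gene lists (713 different genes) and the tests were chosen with earlier results of these data known. Named are the sort genes, all highest genes, the 8 higher and 8 lower genes with the largest difference from the mean of the others, up to 3 called members of each list, and Krt5, Krt14, Krt79, Lrig1, Plet1, Krt15, Krt10, Krt1 and Mki67. Others were chosen after their values were seen: besides those said so in the report, the other cell type markers, Ccna2, Cgnl1, Ahr, Prss23 and the members named of the cytokine, Hedgehog and BMP lists. Replicate numbers were not used to pair the samples. Same-numbered samples deviated together at r = -0.144 to 0.279, and differently numbered ones at r = -0.240 to 0.269. With 3 samples per population these values cannot decide whether the numbers pair them, and fits with blocks are given below. Alternatives were other pseudocounts (0.1 and 4), the mean of probe sets, quantile normalization, a filter on silent genes, blocks, other groupings and leaving out each sample.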

Additional observations from a re-analysis of the deposited data

How the results depend on the processing

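Called against the mean of the others were 232 genes; the count was 421 with the mean of probe sets, 16 with the other 9 arrays as 1 group, and 97 to 368 over the fits that left out 1 sample. The lowest counts came without Gata6+Itga6+ replicates 3, 1 and 2 (97, 122 and 139) and the highest without remaining Itga6+ replicate 3. It was 206 to 257 with either other pseudocount, quantile normalization or the filter on silent genes. Highest against each population were 16 genes, 28 with the mean of probe sets, 1 with a separate fit for every pair, 9 when each difference had to reach 2-fold, and 6 to 25 without single samples. The count without CD34+ replicate 1 or 2, Gata6+Itga6+ replicate 1 or Gata6+Itga6- replicate 1 was 10, without remaining Itga6+ replicate 1 or Gata6+Itga6+ replicate 3 it was 8, and the extremes were remaining Itga6+ replicates 2 (6) and 3 (25). Lowest against each were 0 genes, 1 with the mean of probe sets (Gabbr1) and 1 with quantile normalization (Glcci1). The cause of these changes was not tested. With the replicate block, 211 genes were called, 15 highest and 0 lowest; with a letter in the array labels, shared by 1 sample of every population, as block, 203, 12 and 0. For the 69 genes named by rule, direction against the mean did not reverse in a called gene under any alternative run; 1169 of their values kept their side of the threshold, 206 lost a call and 4 gained one. Signal over background is a further limit: 11 of the 16 highest genes lie near background in the other populations, so their folds are lower bounds or, for Akr1c19, not given.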
